A study of Mus musculus with 18 samples.

Results

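The final m6A peak list of mouse embryonic fibroblasts (MEFs) was compared with that of embryoid bodies (EBs), the 2 differentiated cell populations of the study. All peaks of both lists were taken, and peaks were called shared where they overlapped by 1 bp or more. The MEF list held 10167 peaks on 5331 genes and the EB list 8384 peaks on 5545 genes, out of 28982 peaks in the study's 3 final lists, and the 2 lists together named 7003 genes. Per the labels, MEFs were cells of strain C57BL/6 grown out from a trypsinised, decapitated E13.5 embryo, with 2 antibody-enriched libraries, and no genetic change is named. EBs were aggregates of the ESC line BVSC, also C57BL/6, kept on plates that prevent attachment in the serum medium used for MEFs for 8 to 21 days, with 3 enriched libraries. MEFs are therefore a mixed culture of embryonic connective tissue cells, and EBs a mixture from 1 ESC line over a wide span of days. The series also holds undifferentiated BVSC ESCs (3 enriched libraries) and Mettl3-KO ESCs of strain C57BL/6 (1 enriched library), whose peaks are used below only as landmarks. Each cell type has 1 final list, so no test between MEFs and EBs was possible and the spread of a MEF value is unknown. The 3 EB libraries give the only replicate spread, read counts per peak are not in the files, and intervals (95%, Wilson) cover counting error only.

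N6-methyladenosine (m6A) is the most common internal modification of mRNA. The Mettl3 and Mettl14 methyltransferase sets it mainly in the sequence context GGAC, in long exons and around stop codons, and reader proteins of the YTH family bind it and can shorten the life of the transcript. In m6A-seq a transcript must be both expressed and methylated to give a peak, so a gene missing from a list may lack either. MEFs are mesenchymal cells that secrete matrix, whereas EBs are known to form cells of several germ layers and often an outer layer of visceral endoderm.

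The sequences below come from the widest peaks found in 1 list only and from genes whose peaks did not overlap between the lists. Each was taken at the GGAC nearest the peak centre. They are 30 nt long, read on the transcript strand of GRCm38 (mm10), with GGAC in capitals. The first 2 are from MEF-only genes, for an aggrecan-cleaving protease (Adamts5) and a cytokine receptor (Il17ra). The next 4 are from EB-only genes, for the thrombin receptor thrombomodulin (Thbd), an endoderm transcription factor (Sox7), the BMP antagonist noggin (Nog) and a tight junction protein (Cldn4). Emilin1, an elastic fibre glycoprotein, and Nlrx1, a mitochondrial regulator of innate immunity, each had peaks in both lists that did not overlap.
Adamts5, MEF peak, chr16:85899838-85899867, minus strand: acagaggcaccgtGGACggcagccctcgat
Il17ra, MEF peak, chr6:120481832-120481861, plus strand: gaatggcaaagctGGACcctcagctatggc
Thbd, EB peak, chr2:148406976-148407005, minus strand: gttggctgcagacGGACaccggtgtgagga
Sox7, EB peak, chr14:63948558-63948587, plus strand: ccgctctcccaggGGACtcccacaggccct
Nog, EB peak, chr11:89301750-89301779, minus strand: cttcgccccctgaGGACcgacccggagggg
Cldn4, EB peak, chr5:134946013-134946042, minus strand: ctcacattctccaGGACctgccctgctatg
Emilin1, MEF peak, chr5:30920742-30920771, plus strand: ctatgaacccgagGGACtggagaataagcc
Emilin1, EB peak, chr5:30917921-30917950, plus strand: aacgcagggtgctGGACagcgagggccggt
Nlrx1, MEF peak, chr9:44263965-44263994, minus strand: gtggtgttgtatgGGACcgtgggtactggc
Nlrx1, EB peak, chr9:44253174-44253203, minus strand: tgacagagctgtgGGACcactggctccctc

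Most of the methylated genes were common to MEFs and EBs. Of the 7003 genes, 3873 (55.3%) had a peak in both lists, 1458 (20.8%) in the MEF list only and 1672 (23.9%) in the EB list only. Of the MEF peaks, 6187 (60.9%, 59.9 to 61.8) overlapped an EB peak and 39.1% did not. Of the EB peaks, 5319 (63.4%, 62.4 to 64.5) overlapped a MEF peak and 36.6% did not. The lists shared 1.82 Mb of sequence, a Jaccard index of 0.386. Peaks shared between the lists were mostly also ESC peaks, since 87.8% of the shared MEF peaks and 90.0% of the shared EB peaks overlapped a final ESC peak. Peaks in 1 list only were less often ESC peaks, at 28.2% of MEF-only peaks (26.9 to 29.7) and 61.8% of EB-only peaks (60.1 to 63.5). No other final list held a peak at 2856 MEF peaks (28.1%) and 1171 EB peaks (14.0%).

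Absence from the EB list was often not absence from the EB libraries. Of the 3980 MEF-only peaks, 1168 (29.3%) had no peak in any EB library, 1004 had one in 1 library, 1348 in 2 and 460 (11.6%) in all 3. EB replicates A, B and C held a peak at 51.6%, 59.7% and 16.3% of MEF-only peaks. Every final EB peak overlapped a peak of replicate C, the shortest EB library list with 12364 peaks against 18185 in replicate A and 21509 in replicate B. Of the MEF peaks shared with the EB list, 93.6% overlapped a replicate C peak themselves. At the level of genes, 603 of the 1458 MEF-only genes had a peak in EB replicates A and B and not in C, and 353 had one in all 3. Against genes with a peak in both EB replicates A and B, leaving out replicate C, 581 genes were MEF-only. The MEF-only genes with no peak in any EB library and no EB peak on an exon numbered 185, or 2.64% of all genes in either list. For EB-only peaks such support was largely given in advance, as all EB final peaks overlapped replicate C, and it is not compared with the MEF side. Of the 3065 EB-only peaks, 2454 (80.1%) lay in all 3 EB libraries. In all, 1396 EB-only genes (19.9% of all genes) had a peak in all 3 and no MEF peak on an exon. MEF libraries were not analysed singly, so the same check cannot be made for EB-only genes.

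**Figure D1:**
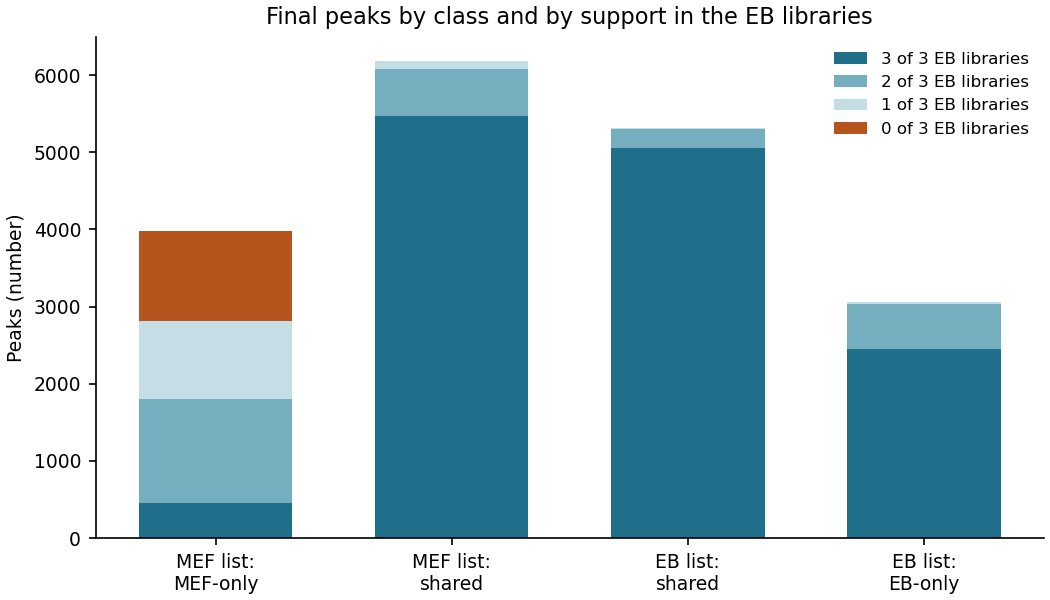
Number of final peaks (y axis) in each class of the MEF and EB lists, coloured by how many of the 3 EB libraries had an overlapping peak. Of the 3980 MEF-only peaks 1168 had no EB library peak, whereas all shared and EB-only peaks of the EB list had at least 1.

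The labels were first set against marker genes. Of 12 fibroblast markers, 3 had a MEF peak and 4 an EB peak. Pdgfrb, a receptor for platelet-derived growth factor, had 2 MEF peaks and 1 EB peak, and Twist1, a mesenchymal transcription factor, likewise had 2 MEF peaks and 1 EB peak. Thy1, a surface glycoprotein of fibroblasts, had 1 MEF peak and no EB peak, and Pdgfra and Prrx1 had 1 EB peak each and no MEF peak. Col1a1, Col1a2, Col3a1, Vim and Fn1, whose products define fibroblasts, had no peak in either list, so these markers do not set MEFs apart from EBs. Col1a2 had a peak in 2 EB libraries. Of 9 endoderm markers, 0 had a MEF peak and 6 an EB peak (Apob 6 peaks, Gata6 3, Gata4 and Foxa2 2 each, Sox17 and Apoa1 1 each). Of 5 pluripotency markers, 0 had a MEF peak and 3 an EB peak (Zfp42 3 peaks, Esrrb 2, Nanog 1). None of 7 heart and blood markers and none of 3 macrophage markers had a peak in either final list, although the macrophage receptor Csf1r had one in all 3 EB libraries, 2 of 5 neural markers had one in each, and of 4 muscle and cartilage markers Acan, which encodes aggrecan, had 5 MEF peaks and 2 EB peaks. In the wider list of 30 fibroblast and mesenchyme genes, 2 were MEF-only (Thy1 and Tbx15) and 7 in both. EB-only were 4 of them, Pdgfra, Prrx1, Snai1 and Tcf4. In the wider list of 30 mesoderm, heart, blood and vessel genes, 4 were EB-only (Gata2, Runx1, Flt1 and Pecam1) and 0 had a MEF peak. Of 28 neural genes, 4 were EB-only, 1 was MEF-only and 1 was in both. Among all genes in either list, 23.9% were EB-only and 20.8% MEF-only. In cultures of mixed cells, fewer cells of a type and less RNA or methylation per cell cannot be told apart.

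Genes of the extracellular matrix had more MEF-only than EB-only members. Among 36 genes for collagens, elastic fibres and their modifying enzymes, 21 had a peak, of which 10 were MEF-only, 3 EB-only and 8 in both, against 20.8% MEF-only and 23.9% EB-only among all genes. The MEF-only members included Fbn1 and Fbn2 (fibrillins), Col8a1, Col12a1, Fbln2, Lox, which cross-links collagen, Thbs2, Bmp1 and Adamts5. Col5a2 was MEF-only by 1 peak of 19 bp. The EB-only members were Col6a1, Col6a2 and Thbs1. Fbn1 had a 480 bp peak centred 20 nt past its stop codon (chr2:125301325-125301804) and 2 smaller ones. Adamts5 had 4 MEF peaks, of which those of 1075 bp and 942 bp lay in coding sequence and overlapped ESC final peaks, and no EB library had a peak at any of the 4. Over all their exons, however, 8 of the 10 genes had a peak in 2 EB libraries and 0 of the 10 lacked EB library peaks altogether. Of all 1458 MEF-only genes, 68.8% had a peak in 2 or 3 EB libraries and 12.7% in none. With EB genes taken as those in at least 2 EB libraries, the list held 2 MEF-only and 6 EB-only members. Under the same rule all genes were 463 MEF-only, 4333 EB-only and 4868 in both. Among the 8 in both lists, Vcan, the proteoglycan versican, had 15 MEF peaks and 2 EB peaks, and Col6a3 had 8 and 2. In the MEF list the matrix genes carried 53 peaks in all, those of Vcan and Col6a3 included, and in the EB list 16. Of the 15 Vcan peaks, 6 had no peak in any EB library. Over all genes with a peak, the mean was 1.91 peaks in the MEF list and 1.51 in the EB list.

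The TGF-beta pathway, a main inducer of matrix genes, showed the same direction. Of 20 members, 7 were MEF-only, 2 EB-only and 7 in both, so that 43.8% of the 16 with a peak were MEF-only and 12.5% EB-only, against 20.8% and 23.9% of all genes. Among the MEF-only members were the receptor Tgfbr2 (2 peaks, up to 625 bp), the latent TGF-beta binding proteins Ltbp1 and Ltbp2, the ubiquitin ligase Smurf2, and the target genes Tgfbi and Ccn2. EB-only were Smad4, the common mediator of the pathway, and Ccn1. The inhibitors Smad7, Ski and Skil had peaks in both lists. Of 30 inflammation and cytokine genes, 6 were MEF-only, among them the cytokine Lif, the receptors Tnfrsf1a and Ifnar2, the signalling inhibitor Socs1 and the NF-kappa-B regulator Nfkbiz, against 2 EB-only (Csf1 and Il1r1) and 9 in both. In both lists of genes most MEF-only members had a peak in 2 or 3 EB libraries, 6 of the 7 TGF-beta and 6 of the 6 cytokine members. Among all MEF-only genes this share was 68.8% (1003 of 1458). With EB genes taken from at least 2 EB libraries, EB-only members outnumbered MEF-only members. The same held for all genes under that rule, with 463 MEF-only, 4333 EB-only and 4868 in both. The TGF-beta list then had 1 MEF-only and 4 EB-only members, and the cytokine list 0 and 2.

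A few list members lacked a peak in any EB library. Tbx15, a T-box factor of limb and skin mesenchyme, had 3 MEF peaks (345, 245 and 127 bp) over its stop codon region and 3′ UTR. The Wnt receptor Fzd2 had 3 MEF peaks of up to 210 bp, and the ribosomal protein gene Rpl34 had 1 of 100 bp. These 3 were the only such members among the 753 entries of the 27 lists. Among other Frizzled receptor genes, Fzd1 had 6 MEF peaks and Fzd6 had 4, and neither had an EB final peak, although both genes had peaks in 2 EB libraries. Fzd10 was EB-only, with 1 peak of 552 bp and peaks in all 3 EB libraries. Fzd7 had 4 MEF peaks, all under 1 EB peak of 2927 bp. The Wnt pathway list as a whole was balanced, with 4 MEF-only, 4 EB-only and 14 members in both.

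Genes of pluripotent cells, endoderm and epithelium were found mostly in the EB list. Among all genes in either list, 23.9% were EB-only, 20.8% MEF-only and 55.3% in both. Of all EB-only genes, 86.5% had a peak in all 3 EB libraries. Of 30 pluripotency genes, 17 were EB-only, 5 in both and 0 MEF-only, and 16 of the 17 had a peak in all 3 EB libraries. They included Nanog (1 peak of 497 bp, centred 151 nt before the stop codon), Esrrb, Zfp42, Sall4 (3 peaks, up to 864 bp), Fgf4 (1193 bp, 3′ UTR), Mycn and Tdgf1. All 17 also had a peak in the ESC final list, as had 69.8% of all EB-only genes. Klf2, Klf4, Klf5, Tbx3 and Trim71, which are also used outside pluripotent cells, had peaks in both lists.

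Of 20 endoderm regulators, 8 had an EB peak and 0 a MEF peak. All 8 with a peak were thus EB-only, against 23.9% of all genes in either list. Each of the 8 had a peak in all 3 EB libraries, as had 86.5% of all EB-only genes. Of these 8 genes, 6 were also in the ESC final list, and Sox7 and Foxa2 were not. Sox7 had a 1660 bp peak over the end of its coding sequence. Sox17 had a 1016 bp coding peak, and Otx2 had a 1331 bp peak in its 3′ UTR. Gata6 had 3 EB peaks, Gata4, Foxa2 and Eomes 2 each. Genes of visceral endoderm transport, the tissue that feeds the early embryo, gave the same split, with 8 of 26 EB-only and 0 in the MEF list. The other 18, among them Afp, Alb and Ttr, had no peak in either list. Apob, the structural protein of lipoproteins, had 6 EB peaks, the widest 589 bp and in coding sequence, and Apoa1 had 1 of 366 bp. Neither gene had an ESC final peak. The endocytic receptor Lrp2 had 3 EB peaks, up to 857 bp. Lrp2, Cldn6, Epcam and Cdh1 of this list also had ESC final peaks. Cldn6, Epcam and Cdh1 are members of the epithelial list as well and are counted again there.

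Epithelial genes were EB-only in 16 cases, MEF-only in 1 (the laminin Lamc1) and in both in 2. The EB-only share was 84.2% of the 19 with a peak, against 23.9% of all genes in either list. EB-only were Cdh1 (E-cadherin), Epcam, the claudins Cldn3, Cldn4 and Cldn6, the transcription factors Grhl2 and Grhl3, the splicing factor Esrp1 and the proteases St14 and Prss8 with their inhibitors Spint1 and Spint2. The Cldn4 peak was 1609 bp wide and centred 13 nt past the stop codon. Of the 17 BMP and Nodal pathway genes with a peak, 9 (52.9%) were EB-only and 1 MEF-only (Smad5). The ligands Bmp2, Bmp4, Bmp7, Nodal and Inhba, the receptor Acvr1 and the antagonists Nog (1536 bp) and Grem1 (1269 bp) were EB-only, while the receptors Bmpr1a, Bmpr2, Acvr1b and Acvr2a had peaks in both. Notch genes split likewise, with 7 EB-only members, or 53.8% of the 13 with a peak. Among them were the ligands Dll1 (4 peaks) and Jag2 and the effectors Hey1, Maml1 and Maml3. The receptors Notch1 and Notch2 had peaks in both. Notch3 was the MEF-only member and had peaks in all 3 EB libraries.

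**Figure D2:**
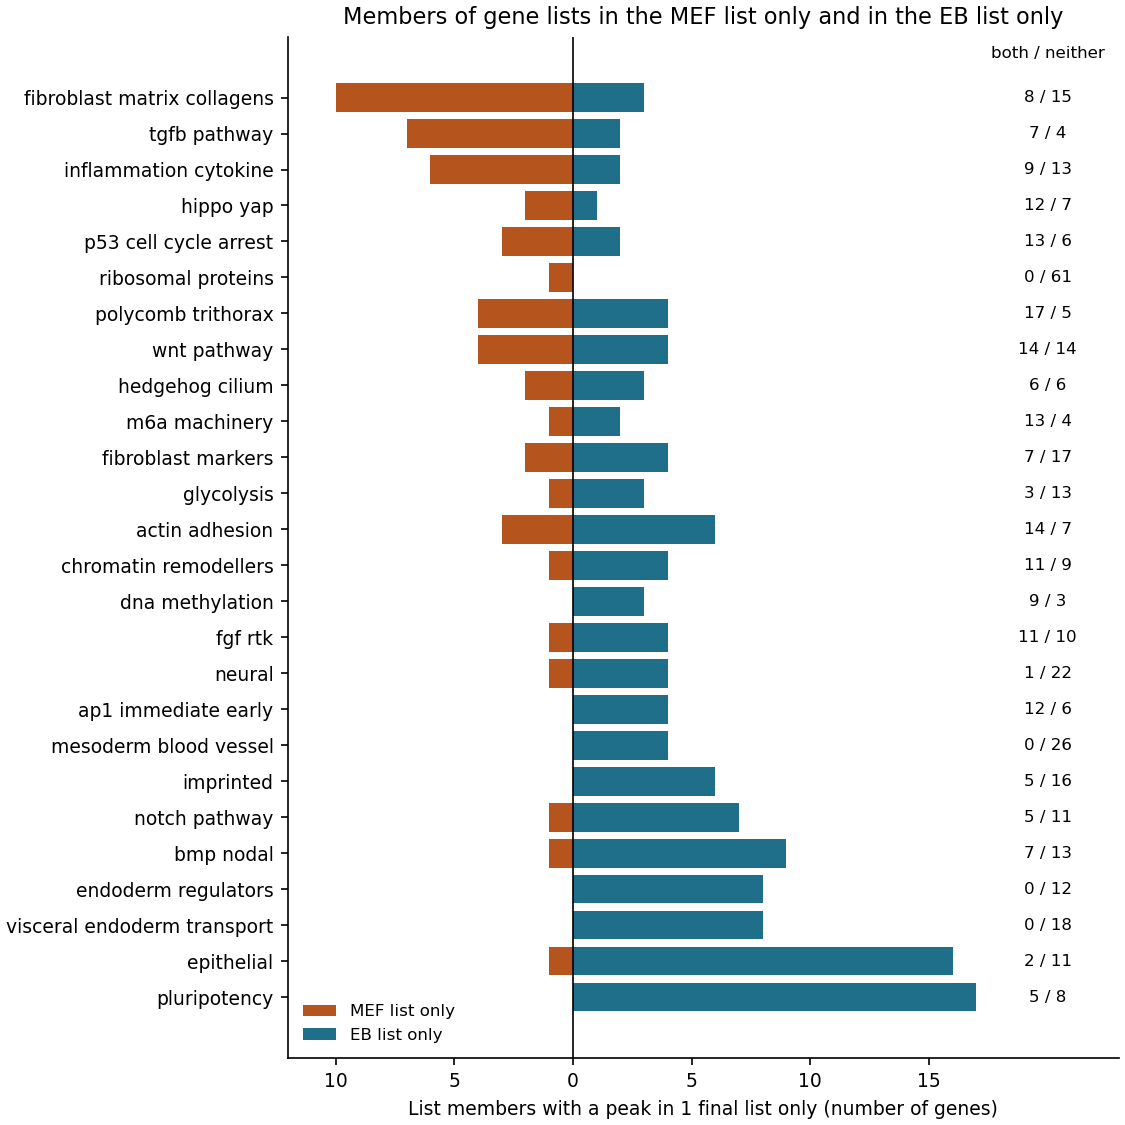
Members of each gene list with a peak in the MEF list only (bars to the left) and in the EB list only (bars to the right), with the numbers in both and in neither list at the right. The list of 43 Hox, Meis and Pbx genes had no peak in either list and is left out, the matrix list had 10 MEF-only and 3 EB-only members, and the pluripotency list 0 and 17.

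Several other gene groups had, among members with a peak, a larger share in both lists than the 55.3% of all genes in either list. Of all genes, 20.8% were MEF-only and 23.9% EB-only. Of 20 m6A machinery genes, 16 had a peak and 13 of these (81.25%) were in both lists. Among them were the writer subunits Wtap, Virma, Rbm15 and Zc3h13, the readers Ythdf1, Ythdf2 and Ythdf3 and the erasers Fto and Alkbh5. Rbm15 had a peak of 1802 bp in MEFs and 2419 bp in EBs over its coding sequence. Of 25 Polycomb and Trithorax genes with a peak, 17 (68%) were in both and 4 in each list only. Cbx6, Cbx8 and Ezh1 were among the MEF-only members, and Mtf2, Aebp2, Pcgf2 and Wdr5 were EB-only. The early response genes had 12 in both (75% of the 16 with a peak), 0 MEF-only and 4 EB-only (Fosl2, Jund, Egr1 and Myc). Of 15 Hippo pathway genes with a peak 12 (80%) were in both, and of 18 p53 and cell cycle arrest genes 13 (72.2%). Cdkn2a, which encodes cell cycle inhibitors, was MEF-only with 1 peak of 109 bp and had a peak in 2 EB libraries. Ribosomal protein genes were almost free of peaks, with 1 of 62 in the MEF list and 0 in the EB list. In actin and adhesion genes 14 of the 23 members with a peak were in both (60.9%), and in chromatin remodellers 11 of 16 (68.8%). Glycolysis genes had a smaller share, with 3 of 7 in both, 1 MEF-only and 3 EB-only. Over the 27 lists, 6 had more MEF-only than EB-only members and 18 more EB-only members. With EB genes taken from at least 2 EB libraries these numbers were 1 and 26, and all genes were then 463 MEF-only and 4333 EB-only.

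The genes with the widest peaks in 1 list only were also set against the EB libraries. For EB-only peaks such support was largely given in advance, since every EB final peak overlapped a replicate C peak. The 2 sides are therefore not compared in it. The 12 MEF-only protein-coding genes with the widest peaks included Irf2bpl (1879 bp), 4930402H24Rik (1278 bp, outside annotated genes), Il17ra (1233 bp), the chromatin remodeller Srcap (1190 bp), Tnfaip8l1 (1151 bp), the Mediator subunit Med26 (1133 bp), Wbp1l (1111 bp), Zbtb14 (1090 bp), Adamts5 (1075 bp), the glycosyltransferase B3gnt9 (1071 bp) and Soga1 (1055 bp). At 4930402H24Rik and Adamts5 no EB library had a peak. The other 10 peaks were present in 2 or 3 EB libraries. Of all MEF-only peaks, 33.9% had a peak in 2 EB libraries and 11.6% in all 3. The Med26 and Adamts5 peaks overlapped an ESC final peak. The 12 widest EB-only genes were Thbd (2208 bp), the skin barrier gene Flg (2122 bp, centred in an intron), the adhesion protein Flrt3 (1998 bp), Chst15, which sulphates chondroitin (1860 bp), the FGF antagonist Spry4 (1798 bp), the small GTPase Rap2b (1748 bp), Sh3tc1 (1682 bp), Sox7 (1660 bp), Cldn4 (1609 bp), Nog (1536 bp), B3gnt7 (1460 bp) and the kinase Ripk4 (1424 bp). All 12 were present in all 3 EB libraries, as were 80.1% of all EB-only peaks. Of the 12, all except Spry4 and Sox7 overlapped an ESC final peak.

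Along transcripts, MEF peaks lay less often at the 5′ end than EB peaks. Within 200 nt of the transcript start were 7.39% of MEF mRNA peaks (705 of 9539) and 13.6% of EB mRNA peaks (1080 of 7949), and the 3 EB libraries had 16.1% ± 2.27 (SD, n = 3), the lowest of them 14.6%. Within 200 nt of the start codon the shares were 11.9% for MEFs, 18.2% for EBs and 18.8% to 24.1% for the EB libraries. The gap was wider among peaks in 1 list only, with 10.5% of MEF-only and 28.0% of EB-only peaks near the transcript start. It was also seen within the genes that had peaks in both lists, where 10.6% of MEF-only peaks and 35.6% of EB-only peaks lay there, against 5.45% and 5.57% of the shared peaks of MEFs and EBs.

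Over all mRNA peaks, MEF peaks lay more often far into the 3′ UTR. The 3′ UTR beyond 200 nt past the stop codon held 18.7% of MEF peaks and 15.5% of EB peaks (EB libraries 15.7% to 17.3%), and 21.5% of MEF-only against 12.5% of EB-only peaks. Without the peaks at transcript starts, it held 1785 of 8834 MEF peaks and 1233 of 6869 EB peaks. In EB replicates A, B and C it then held 2794 of 13777, 2973 of 15379 and 1855 of 9539. The MEF share was then still above that of the EB list but inside the range of the EB libraries. Within 3′ UTRs the median MEF peak was centred 234.5 nt past the stop codon and the median EB peak 183 nt, in 3′ UTRs with a median length of 1798.5 and 1653 nt. Last exons held 60.6% of MEF peaks and 55.8% of EB peaks (EB libraries 48.7% to 55.2%), and internal exons over 400 nt held 24.2% and 21.7% (17.8% to 20.8%). Over all mRNA peaks the share within 200 nt of the stop codon was similar, at 26.3% in MEFs and 27.1% in EBs. The MEF value lay above all 3 EB libraries (21.3% to 25.3%). The shares near stop codons, in last exons and in long internal exons were not computed without the peaks at transcript starts. Of all mRNA peaks, coding sequence held 57.9% in MEFs and 54.4% in EBs and 3′ UTRs 34.2% and 32.8%. Among peaks past 200 nt of the transcript start, coding sequence held 59.5% of MEF and 57.2% of EB peaks and 3′ UTRs 36.9% and 38.0%. The 3′ UTR share was thus higher in MEFs over all mRNA peaks and lower in MEFs without the peaks at transcript starts.

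**Figure D3:**
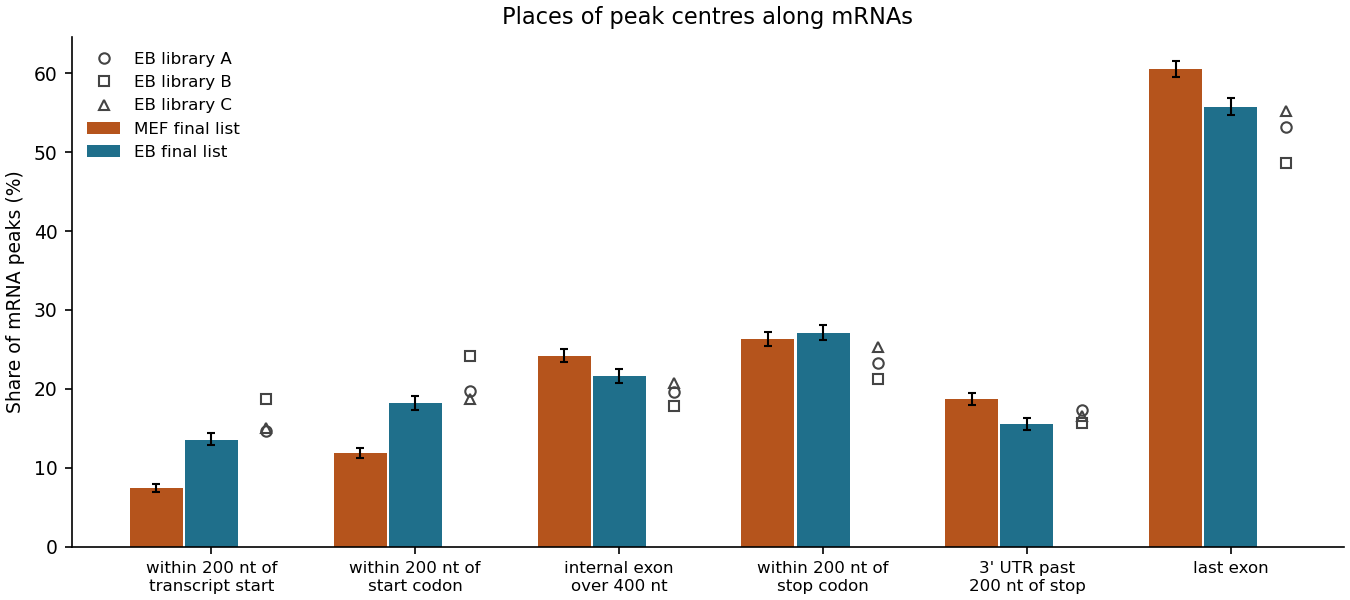
Share of mRNA peaks (y axis, percent) by place of the peak centre in the MEF list and the EB list, with 95% Wilson intervals as error bars and the 3 EB libraries as open symbols. MEFs had 7.39% of peaks within 200 nt of the transcript start and EBs 13.6%, and the MEF bar lies below all 3 EB libraries there.

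**Figure D4:**
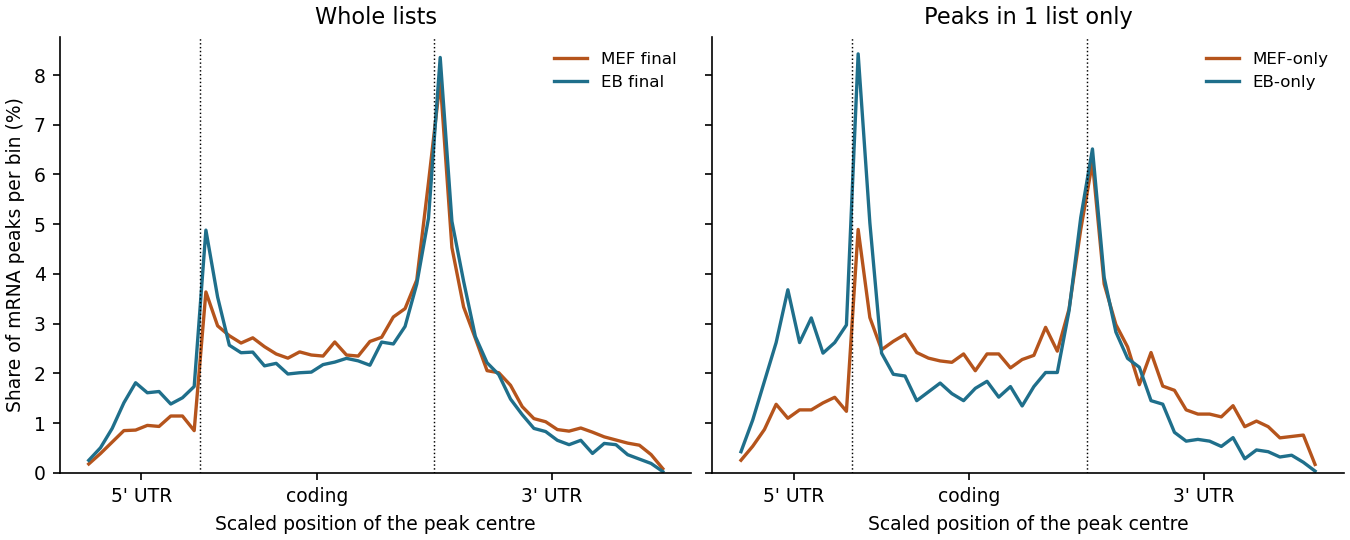
Distribution of peak centres over the scaled 5′ UTR (10 bins), coding sequence (20 bins) and 3′ UTR (20 bins), as percent of mRNA peaks per bin, for whole lists (left) and for peaks in 1 list only (right). Both whole lists and the MEF-only curve are highest just past the stop codon. The EB-only curve is highest in the first coding bin (8.42%), above its first 3′ UTR bin (6.51%). The other curves have a smaller maximum in the first coding bin, at 4.89% for MEF-only peaks.

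Peaks at transcript starts also stood apart in the Mettl3-knockout ESCs, cells made to lack the m6A methyltransferase. Near the transcript start, a knockout peak overlapped 33.9% of MEF peaks (30.5 to 37.5) and 49.7% of EB peaks (46.7 to 52.7). Further along the mRNA the shares were 0.691% and 2.10%. Among peaks in 1 list only, the shares near the start were 21.6% for MEF-only and 49.4% (45.9 to 52.8) for EB-only peaks. Over all places, 3.22% of MEF-only and 17.5% of EB-only peaks overlapped a knockout peak. The knockout is 1 library of ESCs, the cells from which EBs are made, and whether a gene expressed only in MEFs could have given a knockout peak was not tested. Start peaks were narrow in both lists, with a median width of 112 bp in MEFs and 168 bp in EBs, against 226 and 418 bp further along.

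**Figure D5:**
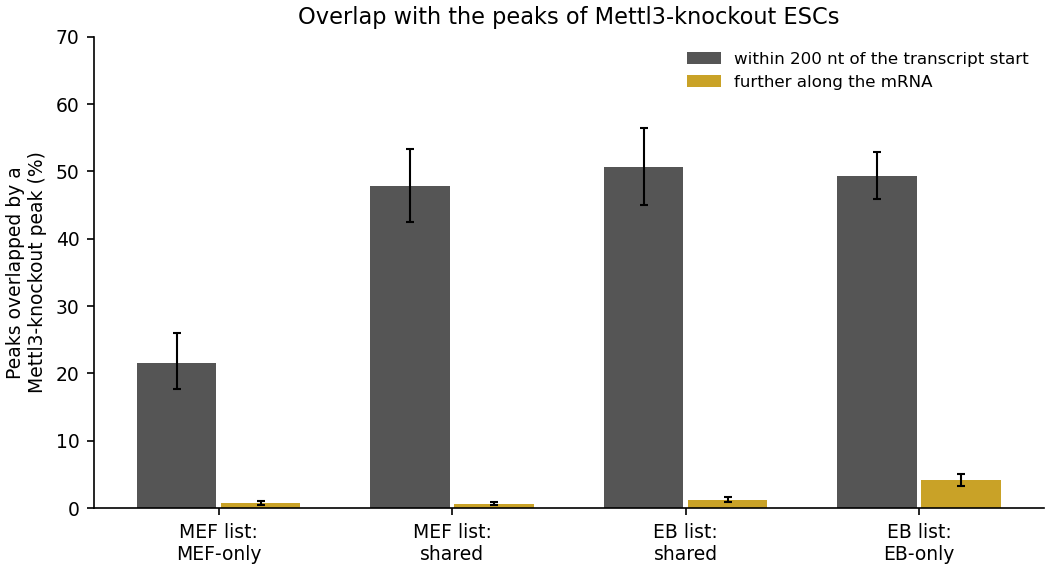
Share of mRNA peaks overlapped by a peak of the Mettl3-knockout ESC library (y axis, percent, with 95% Wilson intervals) for each class, near the transcript start and further along. Shares near the start ran from 21.6% in MEF-only to 50.7% in shared EB peaks, and further along they stayed under 5%.

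The motif GGAC was present at the centres of both kinds of peaks. On the transcript strand it lay within 50 nt of the centre in 57.0% of 9511 MEF mRNA peaks (56.0 to 58.0) and in 54.5% of 7911 EB mRNA peaks (53.4 to 55.6), and the EB libraries ran from 52.1% to 58.6%. The MEF value was thus inside the range of the EB libraries. Of all windows of the same length along the same mRNAs, 34.7% and 35.0% held GGAC. MEF-only peaks had it in 54.4% and EB-only peaks in 56.2%. MEF-only peaks with no EB library peak had it in 47.9% (44.8 to 51.0), below the 56.9% (55.0 to 58.8) of MEF-only peaks with EB library support. They were also the narrowest, with a median of 126 bp against 244 bp for the MEF-only peaks present in all 3 EB libraries.

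Where the lists shared a peak, it was narrower in MEFs. The median width over the lists was 209 bp in MEFs and 363 bp in EBs. Among 4442 peaks that paired 1 to 1, the medians were 256.5 bp in MEFs and 404 bp in EBs, a median log2 width ratio of -0.53 (quartiles -0.98 and -0.19), and the centres lay a median of 37.5 bp apart. The MEF peak lay wholly inside the EB peak in 66.9% of pairs, and 798 EB peaks covered more than 1 MEF peak. EB final peaks were wider than the peaks of the EB libraries, whose medians were 171, 165 and 181 bp, and 13.8% of MEF peaks were narrower than the narrowest EB peak of 114 bp. The part of list making in the width difference was not tested. With an EB library in place of the EB list, the median log2 ratio was -0.20 for replicate A, -0.31 for replicate B and 0.02 for replicate C. The narrowest MEF partners were slivers, such as a 15 bp peak of Zfp945 under an EB peak of 303 bp, a 26 bp peak of Tysnd1, a peroxisomal protease, under 772 bp, and a 25 bp peak in the 5′ UTR of Klf4 under 456 bp. Bard1, the partner of Brca1, Ptpn3, a phosphatase, and Zbtb33, a methyl-CpG binding factor, also had far wider EB peaks (943, 913 and 510 bp, against 37, 44 and 29 bp in MEFs).

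Of the 4442 pairs, 601 were wider in MEFs. Among the 6 with the largest ratio, Vasn, which encodes the TGF-beta binding protein vasorin, had a MEF peak of 1737 bp and an EB peak of 333 bp in its coding sequence. Btd (biotinidase) had 1275 bp in MEFs and 265 bp in EBs, Tacc1 had 873 and 205 bp, Abtb2 had 774 and 232 bp, Zbtb7b had 848 and 261 bp, and Zbtb12 had 438 and 136 bp.

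MEF genes carried more peaks each. A gene had 1.91 peaks on average in the MEF list and 1.51 in the EB list, and of the genes in both lists 1345 had more MEF peaks, 527 more EB peaks and 2001 the same number. Spen, a transcriptional repressor with very long coding exons, had 17 MEF and 14 EB peaks, and the cytoskeletal linker Dst 13 and 9. Hivep1, a zinc finger transcription factor, had 12 MEF and 4 EB peaks. Pcdhgc4, in the protocadherin gamma cluster on chromosome 18, had 23 MEF peaks and 0 EB peaks. None of the 23 was overlapped by an EB final peak under any name, and 10 had no peak in any EB library. The genes with most EB peaks included Kmt2d, a histone methyltransferase, with 9 MEF and 10 EB peaks, the cadherin Fat1 with 9 and 9, the cytoskeletal linker Macf1 with 8 and 8, and Tet1, the enzyme that oxidises 5-methylcytosine, with 2 and 8. Peak number and peak width were not independent, since several MEF peaks often lay under 1 EB peak, as at Fzd7.

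Few genes had peaks only at different places in the lists. Of 3873 genes in both lists, 140 (3.61%) had no overlapping peak. In 106 of them the centres could be placed on the same mRNA, and the MEF peaks lay further downstream in 71 and the EB peaks in 35, with a median offset of 518 nt (MEF minus EB). Of their MEF peaks, 5.96% lay near the transcript start and 24.5% in the 3′ UTR past the stop window, and of their EB peaks 30.8% and 10.5%. In Emilin1 the MEF peak of 356 bp lay 114 nt before the stop codon and the EB peak of 1719 bp 1503 nt before it. In Nlrx1 the MEF peak of 119 bp was centred in coding sequence and the EB peak of 751 bp 69 nt past the stop codon, the opposite order. Cited2, a transcriptional co-regulator, had a 161 bp MEF peak 567 nt past its stop codon and a 959 bp EB peak in its coding sequence. Plec (plectin), the histone methyltransferase Kmt5b and the proton channel Hvcn1 completed the 6 with the widest peaks, and their EB peaks were wider than their MEF peaks (2477, 1538 and 759 bp in EBs, against 90, 158 and 219 bp in MEFs). Absence of the MEF place from the EB list was again not always absence from the EB libraries. A peak lay there in 2 EB libraries for Nlrx1 and Kmt5b, in 1 for Emilin1, Plec and Hvcn1, and in 0 for Cited2.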

How the data were processed

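The files deposited by the authors are lists of peak starts, ends and gene names, with no read number per peak, so depth is unknown. The tools named are MACS 1.4.1, TopHat2 2.0.10 and CASAVA 1.8.2, with build mm10, according to the submitters' processing notes. The way replicates were joined into final lists is not stated. Used were the final lists of MEFs, EBs and ESCs, the 3 EB library lists and that of the Mettl3 knockout. Input libraries and single MEF libraries were not analysed here.

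Genes were those named in the lists, matched to GENCODE M21 by Ensembl ID (MEFs) or by symbol and RefSeq synonym (EBs). 14 MEF peaks carried a symbol turned into a date and were named by their Ensembl ID, and 4 MEF and 10 EB symbols matched no gene. A gene had a peak in an EB library when 1 bp of a peak overlapped an annotated exon, without regard to strand, so overlapping genes can share a peak. Places are those of peak centres on canonical transcripts. MEF starts were read as counted from 0, which could not be checked, and printed coordinates are counted from 1. The share of windows with GGAC replaced the single random window planned as its background. Overlap and placing were tested on simulated data. Python 3.11.15, NumPy 2.4.6, pandas 2.3.3, SciPy 1.17.1, pysam 0.24.0 and matplotlib 3.10.9 were used. Sequences were read from the RefSeq copy of GRCm38.

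The comparison, the 27 gene lists and the rules were chosen with earlier results of these data known, and the window at transcript starts and the knockout shares by place were added after seeing the data. Named are the 12 protein-coding genes with the widest peaks in each list only, with no exon overlap by the other list, the 6 shared pairs with the largest and the 6 with the smallest width ratio, the 6 widest genes in both lists without an overlapping peak, the 6 genes with most peaks in each list, and members of the gene lists and marker lists. Some genes that these rules pick are not reported here. No test was made between cell types, and the alternatives tried are in the closing section.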

Additional observations from a re-analysis of the deposited data

Results flagged for a closer look

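The library lists of EBs and the knockout list lie outside the comparison of the final lists and held signal that the final lists do not show. At 460 MEF-only peaks, all 3 EB libraries had a peak although the EB final list had none. At transcript starts, 239 MEF peaks and 537 EB peaks were overlapped by a peak of the Mettl3-knockout ESCs. Outliers among libraries were not sought, since no group has 4 or more.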

How the results depend on the processing

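No paired analysis was possible because each cell type has 1 final list and no test was made. Chosen after seeing the data were EB libraries or their regions in place of the EB final list, EB genes in any library, and EB library genes for the gene lists. The MEF-only share of MEF peaks was 65.7% with overlap of at least 50% of both peaks, 38.0% with peaks up to 100 bp apart, 33.8% with the longer list cut to the shorter and 22.9% against EB regions in at least 2 libraries, and the EB-only share of EB peaks was 58.4% with 50% of both, 42.3% with the cut list and 51.2% against those regions. MEF-only genes numbered 463 and EB-only genes 4333 with EB genes in at least 2 libraries, and 185 and 7743 with EB genes in any library. With 1 EB replicate left out they ran from 581 to 1153 and from 2389 to 3815, with 581 and 3815 without replicate C, and genes in both from 4178 to 4750. MEF-only peaks with no EB library peak made up 31.8% to 44.4% with 1 EB replicate left out and 33.3% with overlap of at least 50% of the shorter peak. In points of MEF minus EB, a 100 nt window gave -5.02 near start codons, -3.10 near transcript starts, 0.396 near stop codons (of opposite sign) and 1.91 in the 3′ UTR past the stop window. Against EB replicates A, B and C in place of the final list, the difference was -7.83, -12.2 and -6.89 near start codons, -7.22, -11.4 and -7.66 near transcript starts, 3.00, 5.06 and 1.07 near stop codons, 4.67, 5.71 and 4.68 in coding sequence and 4.66, 7.39 and 3.32 in 3′ UTRs. It was -7.26 in 5′ UTRs against replicate B and 1.40 in the 3′ UTR past the stop window against replicate A. The difference in GGAC was 0.14 points within 100 nt. The median log2 width ratio was -0.20 against replicate A, -0.31 against replicate B and 0.023, of opposite sign, against replicate C. Lists with more MEF-only members numbered 1 with EB genes in at least 2 libraries. Of the alternatives other than those for single gene lists, 54 values stayed within the spread or counting error, or, for numbers of genes and lists, within 1.5 times. A further 39 moved beyond these limits, and 1, the width ratio against replicate C, was classed as reversed. The widths against replicates A and B are among the 54 by the spread of single pairs. Read depth is unknown, so neither a longer list nor an absent peak can be tied to a cell type, and the cause of these shifts was not tested.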

Other observations

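Of all genes in either list, 55.3% were in both, 20.8% MEF-only and 23.9% EB-only. Of 26 FGF and receptor kinase genes, 16 had a peak and 11 of these (68.8%) were in both lists, 1 was MEF-only (the receptor Egfr) and 4 EB-only (Fgf5, Fgf10, Fgfr2 and Spry4). The feedback inhibitors Spry1, Spry2, Spred1, Spred2, Dusp4 and Dusp6 had peaks in both, and the widest Spry1 peak was 726 bp in MEFs and 1310 bp in EBs. Of 17 hedgehog genes, 11 had a peak and 6 of these (54.5%) were in both, among them the receptor Ptch1 and the effectors Gli1 and Gli2, while the activator Smo and the ciliary kinesin Kif7 were MEF-only and the ligand Ihh, the effector Gli3 and the receptor Gas1 were EB-only. Of 27 imprinted genes, 11 had a peak, of which 5 were in both, 0 MEF-only and 6 EB-only (54.5%). The EB-only members were Grb10, Snrpn, Ndn, Gnas, Impact and Ascl2, and Peg10 had 4 MEF and 3 EB peaks. Of 15 genes of DNA methylation and its removal, 12 had a peak, of which 9 were in both and 0 MEF-only. The 3 EB-only members (Dnmt3b, Dnmt3l and Tet3) were 25% of the 12, close to the share among all genes. Tet2 had 5 MEF peaks and 2 EB peaks.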
